A study of Homo sapiens with 2 samples.

Results

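Fucosyltransferases are the enzymes that attach the sugar fucose to glycans and proteins. The 10 described here (FUT1, FUT2, FUT3, FUT4, FUT6, FUT8, FUT10, FUT11, POFUT1 and POFUT2) were found by symbol among the 19927 gene rows of a count table. They were chosen by function around FUT1, which had been picked from its lower read count in the knockdown library of these same data, so the values of FUT1 are a description and support nothing further. The cells were Huh7, an established line of human hepatocellular carcinoma cells grown in DMEM with 10% fetal bovine serum; both groups share the line and the medium. One group, shControl, was a culture with a control hairpin, whose genotype label reads WT. The other, shPPIL1, was a culture with the hairpin titled shPPIL1#1 against PPIL1, a prolyl isomerase of the spliceosome, and its genotype label reads PPIL1 knockdown. A single hairpin stands for the knockdown, and its vector and promoter are not stated in the labels. Each group was 1 library of polyadenylated RNA, so no difference has a replicate check and no p-value is given.

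Fucosyltransferases use GDP-fucose as donor and differ in what they modify. FUT1 and FUT2 add alpha-1,2-linked fucose to terminal galactose and make the H antigen, the precursor of the A and B blood groups. FUT3, FUT4 and FUT6 add alpha-1,3-linked fucose, and FUT3 also alpha-1,4-linked fucose, to make Lewis antigens. FUT8 adds the core fucose of N-glycans, and a core-fucosylated form of alpha-fetoprotein is used as a serum marker of hepatocellular carcinoma. POFUT1 and POFUT2 attach fucose directly to serine or threonine of folded protein repeats, POFUT1 on EGF-like repeats such as those of Notch receptors and POFUT2 on thrombospondin repeats. FUT10 and FUT11, listed in RefSeq as POFUT3 and POFUT4, act on EMI domains of secreted proteins.

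Counted reads came to 41015345 for shControl and 41165401 for shPPIL1. A ratio is the knockdown over the control library after TMM scaling of library sizes. The range after it is an exact 95% interval that covers counting error only and takes each counted read as independent. Most of the lowest counts given here were even, such as 2 for FUT1 and 4 and 12 for MMRN2, though NOTCH4 had 15. Whether both ends of a fragment were counted is not given in the sources used here. If they were, all intervals are too narrow, also those behind the shares over all kept genes. Genes were kept if either library reached 1 CPM (reads scaled to library size), about 40.7 reads in shControl and 41.5 in shPPIL1, which left 12540 genes. PPIL1 itself stood at 1505 reads in shControl and 104 in shPPIL1 (ratio 0.0679, 0.0551 to 0.0829), the direction of the labels. All 9 hepatocyte markers had reads, with a summed level of 24422 CPM (shControl) and 24884 CPM (shPPIL1). The 4 endothelial markers summed to 10.5 and 8.78 CPM and the 4 stellate and fibroblast markers to 10.3 and 11.7 CPM, with KDR and COL1A2 at 0. The 4 leukocyte markers summed to 337 and 270 CPM, nearly all from LYZ, and the 5 cholangiocyte markers to 888 and 858 CPM, with KRT7 at 0.

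Of the 10 fucosyltransferases, 8 were kept. FUT1 was the 1 kept member at least 2-fold lower with an interval excluding 1, against 0.518% of all kept genes, and 0 were at least 2-fold higher, against 0.526%. Such lower calls were a larger share among genes of like depth, with 21 to 84 control reads. There they were 47 of 931 kept genes and 107 of all 1455 genes. FUT1 passed the filter through the control library alone, where it is high, at 1.03 CPM and so just over the cut. With a filter of 5 CPM in at least 1 library, or of 1 CPM as the mean of both, FUT1 was not kept and 0 members were at least 2-fold lower. FUT2 and FUT11 were the 2 kept members with an interval above 1, against 24.6% of kept genes. FUT1 alone had an interval below 1, against 26.4%. For the other 5 kept members (FUT4, FUT8, FUT10, POFUT1 and POFUT2) the interval included 1. FUT3 and FUT6 stayed under 1 CPM in both libraries. Over the 8 kept members the log2 ratio had a median of 0.045, beside -0.00165 over all kept genes.

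FUT1 makes the H antigen of red cells and vascular endothelium. The count was 42 reads in shControl and 2 in shPPIL1, a deposited level of 0.264 and 0.0125 FPKM (reads scaled to gene length and library size). The ratio was 0.0468 (0.00549 to 0.180), a log2 ratio of -4.42. The point estimate rests on 2 reads. FUT1 was picked from these same counts, so the interval describes them and is no check on the difference. Among the kept genes 1 had a lower ratio, SMIM11, a gene with near-identical copies, at 357 and 4 reads. The endothelial markers PECAM1, VWF and CDH5 had 410 and 352, 4 and 0, and 15 and 12 reads, and their part in the result for FUT1 was not tested.

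Low read counts give wide ratios, so FUT1 was set beside genes of like depth. Of all genes in the table, 1455 had between 21 and 84 control reads. Their median ratio was 0.982, with the middle 50% from 0.737 to 1.26. With an interval excluding 1, 107 were at least 2-fold lower and 41 at least 2-fold higher. For the kept genes alone these counts were 47 and 41, with a median ratio of 1.08. A gene under 40.7 control reads was kept only if it reached 41.5 reads in shPPIL1, which fixed a ratio above 1. The counts of kept genes were thus shaped by the filter, and their balance is no result. The range was set by control reads alone. TMEFF1, with 29 and 0 reads, was at least 9.84-fold lower when the knockdown library is set to a floor of 3 reads, a bound that does not place it above or below FUT1. No other gene in this range had a lower ratio than FUT1. Among the 931 kept genes of this range, the nearest in ratio was PRDM8, with 41 and 4 reads and a ratio of 0.0959 (0.0249 to 0.265). The next 4 were AKAP17A_1 at 0.230, NUDT4B at 0.249, PTPRD at 0.291 and TBC1D3G at 0.293, several of which belong to families of near-identical copies. Because FUT1 was chosen for its low ratio, its place below them is a description.

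**Figure D1:**
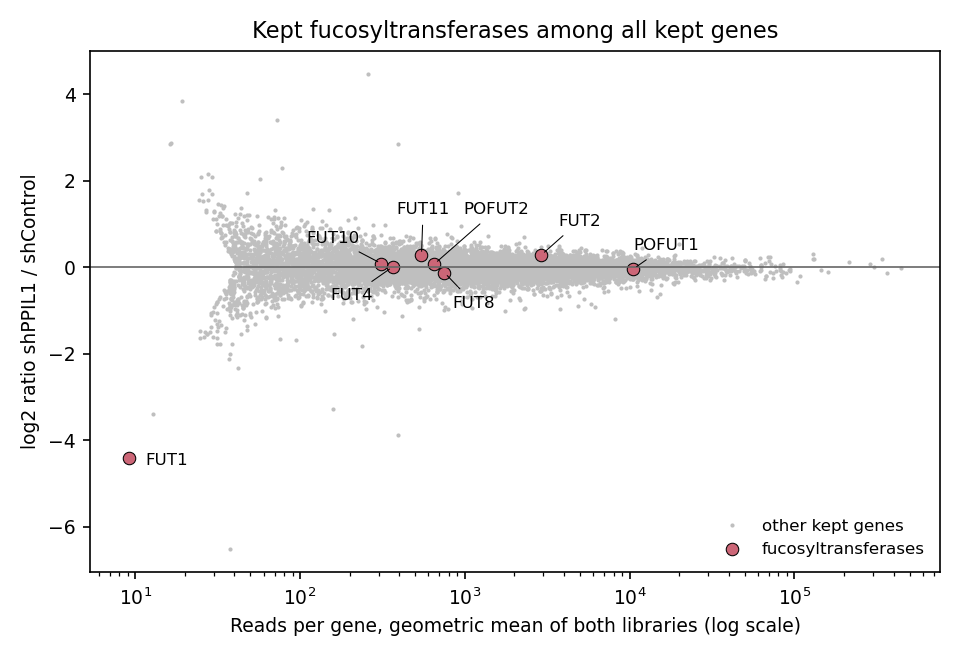
Reads per gene (geometric mean of both libraries, log scale) against the log2 ratio of shPPIL1 over shControl for the kept genes, with the 8 kept fucosyltransferases as red points. FUT1 stands at the left edge at -4.42, and the other 7 lie between -0.12 and 0.29.

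FUT2 is the secretor enzyme, which makes the H antigen of secretions and epithelia. Its reads numbered 2613 in shControl and 3242 in shPPIL1, or 20.5 and 25.3 FPKM. The ratio was 1.22 (1.16 to 1.28), a log2 ratio of 0.29. FUT2 thus stood above the control level while FUT1 stood below it. Because FUT2 carried most reads of the pair, the sum of both alpha-1,2 enzymes was also higher in the knockdown library, at 2655 and 3244 reads (ratio 1.20, 1.14 to 1.26). Within the control library FUT1 held 1.58% of the reads of the pair (exact 95% interval 1.14 to 2.13%). In the knockdown library it held 0.0617% (0.00747 to 0.223%). This comparison needs no scaling between libraries, but it uses the counts from which FUT1 was picked and is a description as well. Per length, FUT2 was 77.5 times as abundant as FUT1 in the control and 2020 times in the knockdown library, the latter over 2 reads of FUT1.

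FUT1 and FUT2 lie in the same region of chromosome 19 (GRCh38), FUT2 from 48695971 to 48705951 on the plus strand and FUT1 from 48748011 to 48755358 on the minus strand. FGF21 starts 0.166 kb beyond the RefSeq start of FUT1 on the opposite strand, so the genes stand head to head. The sequences upstream of the pair, 2 genes of 1 reaction, are shown as a description. FUT1 was picked for its low count, and a link between these sequences and the ratios was not tested. For FUT1 this is the stretch between its most upstream GENCODE exon and FGF21 (chr19:48755391-48755523, minus strand, 133 bases, 60.2% G+C). For FUT2 it is the 250 bases before the RefSeq start (chr19:48695721-48695970, plus strand, 64.0% G+C). Capitals mark matches on either strand to the GC box GGGCGG or the HNF4 core CAAAGTCCA.
FUT1: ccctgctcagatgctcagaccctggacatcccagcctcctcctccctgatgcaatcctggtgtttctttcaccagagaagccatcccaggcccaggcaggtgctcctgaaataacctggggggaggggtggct
FUT2: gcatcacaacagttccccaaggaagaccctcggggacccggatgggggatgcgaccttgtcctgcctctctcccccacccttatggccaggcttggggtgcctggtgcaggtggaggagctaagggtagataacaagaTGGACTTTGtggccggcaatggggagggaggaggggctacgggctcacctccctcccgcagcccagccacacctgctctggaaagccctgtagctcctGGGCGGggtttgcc

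The FUT2 stretch held 1 GC box and 1 HNF4 core, the latter read on the minus strand. Over the 35116 RefSeq promoter windows of 250 bases, 42.6% held a GC box and 0.325% an HNF4 core. The FUT1 stretch held neither of these motifs. It also held no TATA box, whose letters were TATAAA and which 10.7% of windows held. The E box, searched as CACGTG, was absent too and was held by 6.34% of windows. The HNF1 site was searched as GTTAAT and was held by 6.23% of windows. The AP-1 site was searched as TGANTCA and was held by 6.57% of windows. The CCAAT box was held by 32.0% of windows. None of these last 3 motifs matched either stretch. The FUT1 stretch, at 133 bases, was shorter than the windows behind these shares, so a match in it was less likely. The full 250 bases before the RefSeq start of FUT1, which overlap FGF21, also held none of these motifs. RefSeq gives FUT1 another start inside the gene, and the 250 bases before it held 4 GC boxes at 74.8% G+C. The median G+C content over all windows was 58.0%. The core promoter windows of POFUT1 and POFUT2 were rich in GC boxes, with 6 and 5 and a G+C content of 81.6% and 74.0%. A match is a run of letters and no evidence of binding.

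Of the 10 genes of the table that lie at least partly within 100 kb of FUT1, FUT1 included, 7 were kept. The 6 kept neighbours all had ratios above 1, from 1.11 to 1.24. For 4 of them (FUT2, MAMSTR, BCAT2 and PLEKHA4) the interval lay above 1, against 24.6% of all kept genes. RASIP1 passed the filter through the knockdown library alone, which fixed its direction. The 5 neighbours with 1 CPM in both libraries had ratios from 1.11 to 1.22. MAMSTR, a coactivator of MEF2 factors, had 434 and 513 reads (ratio 1.16, 1.02 to 1.32). BCAT2, the mitochondrial branched-chain aminotransferase, had 1083 and 1291 reads (1.17, 1.08 to 1.27). PLEKHA4 had 3006 and 3387 reads (1.11, 1.05 to 1.16). RASIP1 stood at 38 and 48 reads and HSD17B14 at 79 and 97, both with intervals including 1. FGF21, the nearest gene, had 2 and 0 reads, IZUMO1 had 0 in both and NTN5 had 0 and 12. The window was also widened, a choice made after these values were seen. Within 500 kb on each side, 18 of 29 kept genes besides FUT1 had a ratio above 1, with 9 intervals above 1 and 5 below. Within 1000 kb, 33 of 53 did, or 62.3%, with 17 intervals above 1 and 8 below. A ratio above 1 was held by 49.6% of all kept genes with a RefSeq match and by 52.6% on chromosome 19.

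**Figure D2:**
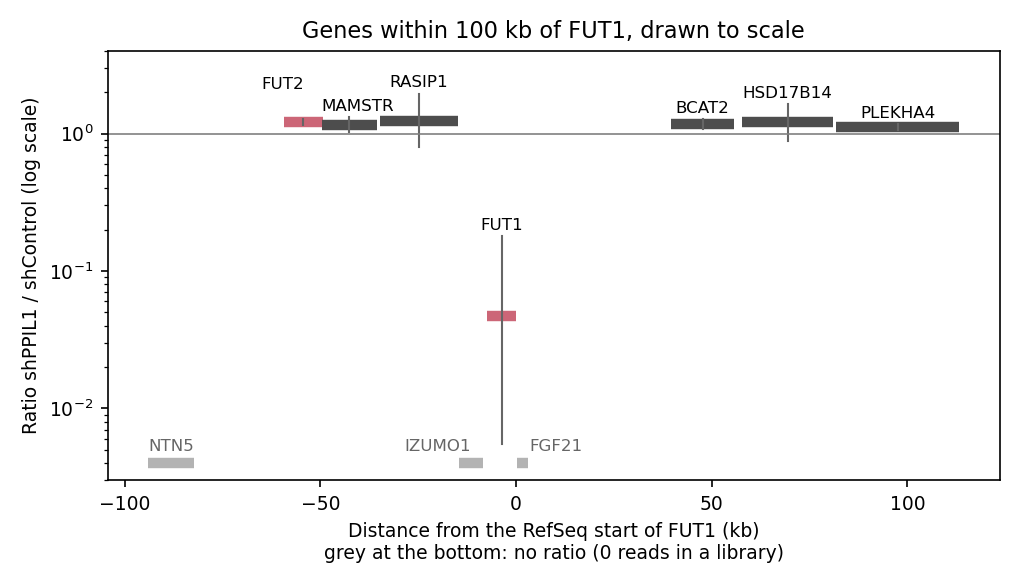
Genes of the count table within 100 kb of FUT1, drawn to scale by distance from the RefSeq start of FUT1 (kb), at their ratio of shPPIL1 over shControl (log scale), with thin lines for exact 95% counting intervals and FUT1 and FUT2 in red. The 6 kept neighbours lie between 1.11 and 1.24 and FUT1 at 0.0468; NTN5, IZUMO1 and FGF21, in grey, had 0 reads in a library and have no ratio.

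The Lewis enzymes were weakly expressed. FUT4, which makes the Lewis x antigen of myeloid cells, stood at 361 reads in shControl and 371 in shPPIL1, or 1.47 and 1.51 FPKM. Its ratio was 1.01 (0.871 to 1.17). FUT6, the enzyme that fucosylates plasma proteins made by the liver, had 26 and 39 reads, or 0.215 and 0.322 FPKM. Its ratio of 1.47 (0.875 to 2.52) had an interval including 1. FUT3, the Lewis blood-group enzyme, had 2 and 0 reads, both at or under the floor of 3 reads, so no ratio is given. The related genes FUT5, FUT7 and FUT9 stood at 0 reads in shControl, and at 2, 0 and 0 in shPPIL1. A count of 0 allows up to 3 reads, or 0.0737 CPM (shControl) and 0.0724 CPM (shPPIL1).

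Shared sequence limits the reading of these rows. FUT3, FUT5 and FUT6 lie side by side on chromosome 19, from 5830408 (FUT6) to 5870540 (FUT5). Of the 249 windows of 100 bases along the longest coding transcript of FUT3, 10.0% also occurred in transcripts of another gene, and for FUT6 8.22% of 304 did. How reads from such windows were counted is not given in the sources used here. FUT4 (chromosome 11, 94543921 to 94549895) has 1 exon and overlaps PIWIL4 on the same strand, with 8.22% of its 596 windows in PIWIL4 transcripts. PIWIL4 had 14 and 61 reads, a ratio of 4.28 (2.37 to 8.29). It passed the filter through the knockdown library alone, which fixed its direction. FUT4 reads cannot be told apart from PIWIL4 reads in that stretch. For FUT1, FUT8, FUT10, FUT11, POFUT1 and POFUT2 no window of 100 bases was shared, and for FUT2 2.32% of 302 were, all with the pseudogene SEC1P. With windows of 50 bases the shares were 1.43% for FUT1, 7.17% for FUT2, 18.1% for FUT3, 10.1% for FUT4 and 12.9% for FUT6, and 0% for FUT8, FUT10, FUT11, POFUT1 and POFUT2. FUT5 shared 82.0% of its windows of 100 bases, mostly with an annotated gene that overlaps it on the same strand. The read length is not stated in the labels.

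FUT8, the core fucosyltransferase, lies on chromosome 14 from 65356842 to 65744121. Its reads numbered 776 in shControl and 726 in shPPIL1, or 3.43 and 3.20 FPKM. The ratio was 0.919 (0.830 to 1.02), with an interval that includes 1. Set against FUT2 within each library, FUT8 held 22.9% of the reads of both genes in shControl (21.5 to 24.35%) and 18.3% in shPPIL1 (17.1 to 19.5%). These intervals did not overlap. Set against POFUT1, the share of FUT8 was 6.84% (6.38 to 7.32%) and 6.48% (6.03 to 6.95%), with overlapping intervals.

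POFUT1 was the most abundant member in both libraries. It lies on chromosome 20 from 32207880 to 32238658 and had 10574 and 10481 reads, or 80.9 and 79.9 FPKM, above 95.4% of all genes in each library. The ratio was 0.974 (0.948 to 1.001). This was the narrowest interval of any member, since POFUT1 had the most reads. POFUT2 (chromosome 21, 45263935 to 45287895) had 630 and 676 reads, or 6.92 and 7.40 FPKM, with a ratio of 1.05 (0.944 to 1.18). The 2 enzymes together held 11204 and 11157 reads, a ratio of 0.978 (0.953 to 1.004).

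FUT11 and FUT10, the enzymes of EMI domains, had ratios above 1. FUT11, on chromosome 10 from 73772276 to 73780254, stood at 492 reads in shControl and 605 in shPPIL1, or 6.39 and 7.83 FPKM, a ratio of 1.21 (1.07 to 1.36). FUT10, on chromosome 8 from 33308061 to 33473146, had 300 and 324 reads, or 1.34 and 1.44 FPKM, a ratio of 1.06 (0.904 to 1.246). The annotation places TTI2 over FUT10 on the same strand. It places genes on the opposite strand over FUT3, FUT4, FUT8, FUT11 and POFUT2, and whether the counting used strand is not stated. The interval of FUT11 excluded 1 and that of FUT10 did not, but the share of FUT11 in the reads of both was 62.1% (58.6 to 65.5%) and 65.1% (62.0 to 68.2%), with overlapping intervals, so the 2 ratios were not shown to differ. Against FUT8, the share of FUT8 in the reads of FUT8 and FUT11 was 61.2% (58.45 to 63.9%) in shControl and 54.55% (51.8 to 57.25%) in shPPIL1, without overlap. Of the 8 pairs of members compared in this way, 4 had intervals that did not overlap, and FUT1 or FUT2 took part in 3 of these. The pairs were picked by hand, and no such share was worked out over pairs of all genes, so the count is a description. For single genes, 26.4% of all kept genes had a ratio interval below 1 and 24.6% had one above 1.

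**Figure D3:**
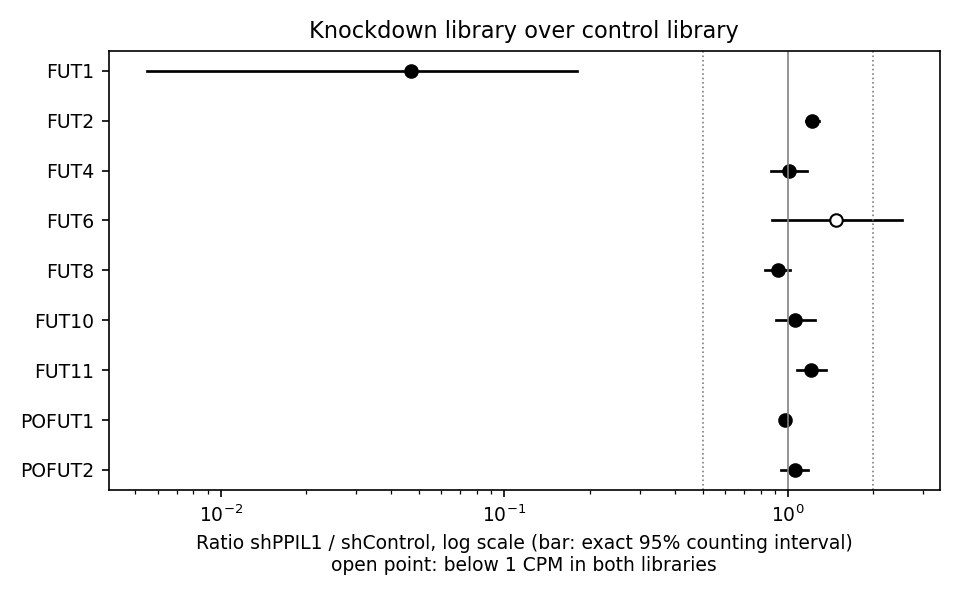
Ratio of shPPIL1 over shControl (log scale) for the 9 fucosyltransferases with more than 3 reads in a library, with exact 95% counting intervals as bars, dotted lines at 0.5 and 2, and an open point for FUT6, which was below 1 CPM in both libraries. FUT1 lies left of 0.5 with its whole interval, and the other 8 points lie between 0.919 and 1.47.

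By class and per deposited length, POFUT1 and POFUT2 held most of the fucosyltransferase RNA. They summed to 87.9 FPKM (shControl) and 87.3 FPKM (shPPIL1), or 72.3% and 68.8% of the sum over the 10 members. FUT1 and FUT2 summed to 20.7 and 25.3 FPKM, or 17.1% and 19.95%. FUT10 and FUT11 summed to 7.73 and 9.27 FPKM, or 6.36% and 7.30%. The core enzyme FUT8 made up 2.83% and 2.52%, and the Lewis enzymes FUT3, FUT4 and FUT6 1.41% and 1.44%. These shares depend on the gene length. With the union of exons in GENCODE release 29, FUT1 and FUT2 held 27.3% in shControl and 31.3% in shPPIL1, POFUT1 and POFUT2 61.05% and 56.97%, and the Lewis enzymes 2.31% and 2.29%. Summed reads of the 10 members stood at 15816 and 16466, a ratio of 1.02 (1.001 to 1.045).

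The order of levels in the control library, by deposited FPKM, was POFUT1, FUT2, POFUT2, FUT11, FUT8, FUT4, FUT10, FUT1, FUT6 and FUT3. The counting intervals overlapped for the neighbours POFUT2 and FUT11 (6.39 to 7.48 and 5.835 to 6.98 FPKM), for FUT4 and FUT10 (1.325 to 1.63 and 1.193 to 1.501), and for FUT1 and FUT6 (0.190 to 0.357 and 0.141 to 0.316). In shPPIL1, FUT11 stood ahead of POFUT2, with overlapping intervals (7.215 to 8.475 and 6.85 to 7.98 FPKM). FUT1 stood at place 9 there against 8 in shControl, below FUT6, and the intervals did not overlap (0.00152 to 0.0453 against 0.229 to 0.440 FPKM). The order of places 3 to 5 also depended on the gene length. With the union of exons in GENCODE release 29 in place of the deposited length, FUT8 took place 3 in the control library, ahead of POFUT2 and FUT11.

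**Figure D4:**
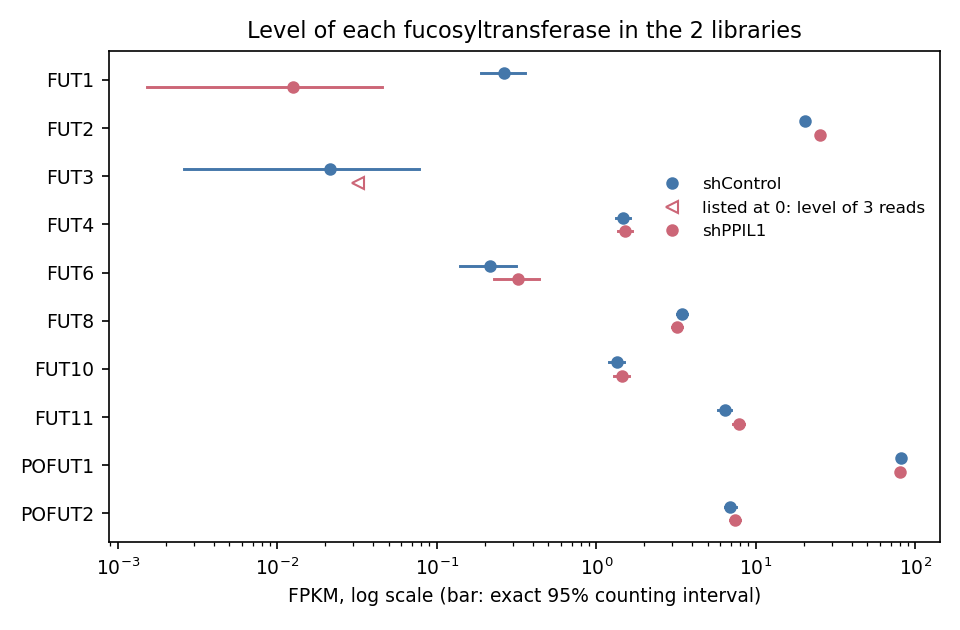
Deposited FPKM (log scale) of the 10 fucosyltransferases in shControl (blue) and shPPIL1 (red), with exact 95% counting intervals as bars and an open triangle at the level of 3 reads for FUT3, listed at 0 in shPPIL1. POFUT1 is highest at 80.9 and 79.9 FPKM. The intervals of the libraries lie apart for FUT1 (0.264 and 0.0125), which was picked for its difference, FUT2 (20.5 and 25.3) and FUT11 (6.39 and 7.83). Of all kept genes, 26.4% had a ratio interval below 1 and 24.6% one above 1.

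The members differ in gene structure along the same classes. FUT1, FUT2, FUT3, FUT4 and FUT6, which act on terminal glycans, have their coding sequence in 1 exon of the longest coding transcript. FUT8 has 9 coding exons, FUT10 has 4, FUT11 has 3, POFUT1 has 7 and POFUT2 has 8. FUT1 has 4 exons in that transcript, 3 of which hold untranslated sequence alone, while FUT4 has 1 exon in all.

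RNA of all 9 listed genes for GDP-fucose supply and fucose removal was measured, and all were kept. In 3 of 9 the interval lay below 1, against 26.4% of all kept genes. In 0 it lay above 1, against 24.6%, and in 6 it included 1. The median log2 ratio was -0.04. GMDS, the first enzyme of the de novo route from GDP-mannose, had 3140 and 2676 reads (ratio 0.837, 0.795 to 0.882). FPGT, of the salvage route, had 320 and 270 reads (0.829, 0.702 to 0.978), and SLC35C2, a transporter-like protein of the Golgi linked to Notch fucosylation, had 2090 and 1868 (0.878, 0.825 to 0.935). GFUS, which completes de novo synthesis, stood at 1616 and 1605 reads (0.976, 0.910 to 1.05), the salvage kinase FCSK at 1018 and 978 (0.944, 0.864 to 1.03) and the Golgi GDP-fucose transporter SLC35C1 at 484 and 481 (0.976, 0.859 to 1.11). The fucose mutarotase FUOM had 956 and 995 reads (1.02, 0.935 to 1.12). The lysosomal fucosidase FUCA1 had 921 and 999 reads (1.07, 0.973 to 1.17), and FUCA2 had 4626 and 4724 (1.00, 0.963 to 1.05). None of the 9 reached 2-fold.

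Enzymes that build or compete for the acceptors of FUT1 to FUT6 had intervals on both sides of 1, as did all kept genes (26.4% below, 24.6% above). Of 19 listed genes 15 were kept, with 4 intervals below 1, 5 above 1 and 6 including 1, and a median log2 ratio of 0.04. A4GALT, the synthase of the globoside Gb3 and of the P1 antigen, was the 1 gene past 2-fold, with 55 and 26 reads (ratio 0.464, 0.280 to 0.753). It passed the filter through the control library alone, where it is high. GCNT3, a branching enzyme of mucin-type glycans, had 7389 and 5857 reads (0.779, 0.752 to 0.806). ST3GAL3, which sialylates the galactose that FUT1 and FUT2 also use, had 275 and 365 reads (1.304, 1.11 to 1.53). B4GALT1, a galactosyltransferase that makes acceptor chains, had 8288 and 9158 (1.09, 1.05 to 1.12). ABO, which turns the H antigen into A or B, had 0 reads in both libraries, as did B3GALT4 and B3GALT5.

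Around core fucosylation, all 14 N-glycan processing genes were kept, with 5 intervals below 1, 5 above 1 and 4 including 1. Over all kept genes the shares were 26.4% below 1 and 24.6% above 1. The median log2 ratio of the list was 0.01. MAN1C1, a Golgi mannosidase, had 28 and 67 reads (ratio 2.35, 1.49 to 3.80) and was the 1 gene of the list past 2-fold. It passed the filter through the knockdown library alone. MAN2A2, another Golgi mannosidase, had 1603 and 1343 reads (0.823, 0.765 to 0.886), and the sialyltransferase ST6GAL1 had 9372 and 8256 (0.866, 0.840 to 0.892). MGAT1, whose product FUT8 requires, stood at 5050 and 5150 reads (1.00, 0.964 to 1.04).

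On the protein O-fucose side, 7 of 8 partner enzymes were kept, with 1 interval below 1, 1 above 1 and 5 including 1. For this list and the Notch lists, the shares over all kept genes were 26.4% below 1 and 24.6% above 1. POGLUT1, which adds O-glucose to EGF-like repeats, had 750 and 642 reads (ratio 0.841, 0.756 to 0.936), and EOGT, which adds O-linked N-acetylglucosamine to them, had 264 and 342 (1.27, 1.08 to 1.5). Of 9 Notch receptors and ligands, the main acceptors of POFUT1, 6 were kept, with 1 interval below 1 and 3 above 1. One of the 3 was the receptor gene NOTCH3 (25 and 44 reads, 1.73, 1.035 to 2.95), which passed the filter through the knockdown library alone, so its direction was fixed. The ligand gene JAG1 had 8387 and 5788 reads (0.678, 0.656 to 0.701), whereas the ligand genes DLL4 and JAG2 had 98 and 187 (1.87, 1.46 to 2.42) and 451 and 559 (1.22, 1.07 to 1.38). Of 8 Notch target genes 5 were kept, and 2 intervals lay above 1, those of HES1 (1642 and 1830 reads, 1.09, 1.02 to 1.17) and HES4 (653 and 740 reads, 1.11, 1.001 to 1.24).

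Acceptors of the other O-fucosyltransferases were compared in the same way. Of 12 thrombospondin-repeat proteins 7 were kept, with THBS1 above (2015 and 2223 reads, ratio 1.08, 1.02 to 1.15) and SPON2 below (74 and 47 reads, 0.624, 0.4235 to 0.9115), and 5 intervals including 1. Of 6 EMI-domain proteins 3 were kept, with EMILIN1 below (68 and 47 reads, 0.679, 0.458 to 0.9994) and 2 intervals including 1. These shares stand beside the 26.4% of all kept genes with an interval below 1 and the 24.6% with one above 1, and several lists hold too few kept genes to be read against them.

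**Figure D5:**
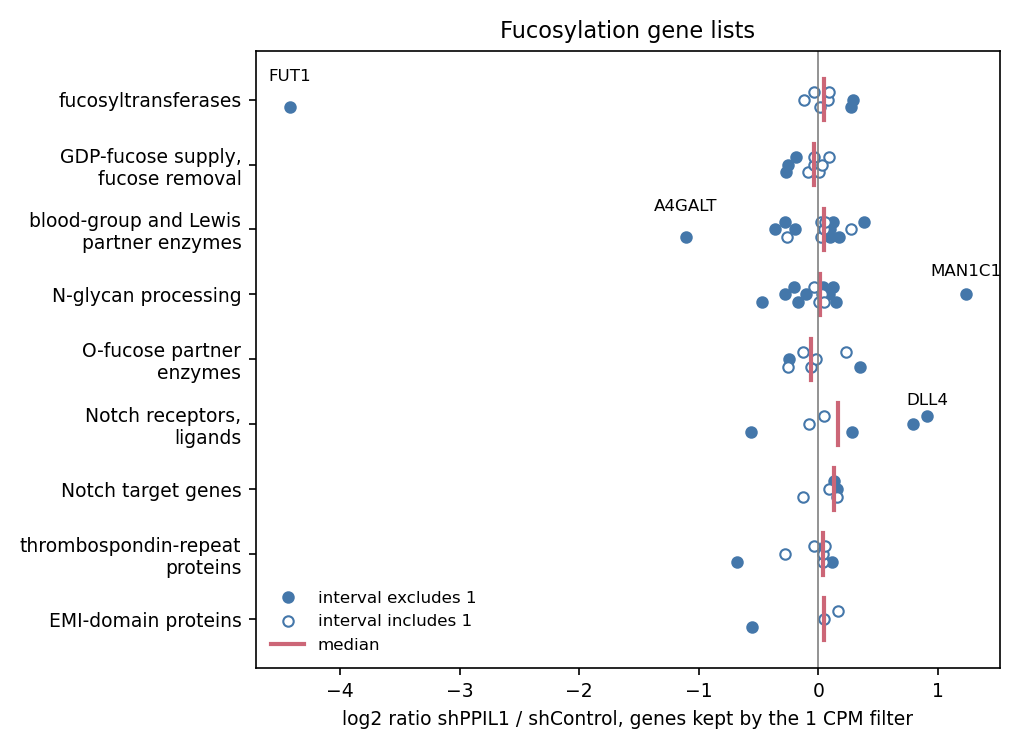
Log2 ratio of shPPIL1 over shControl for the kept genes of the fucosyltransferases and 8 related lists, with filled points where the exact 95% interval excludes 1 and red lines at list medians. List medians lie between -0.06 and 0.16, and FUT1 at -4.42, A4GALT at -1.11 and MAN1C1 at 1.23 stand farthest from 0.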

How the data were processed

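The authors deposited raw counts per gene and FPKM values per gene for each library, as the file headers and values show. Libraries were matched by the column names that the labels state. Another 7 columns of counts have no matching label and were left aside. The build was hg38, per the submitters' processing notes. For aligner, counter, annotation, strand setting and multi-mapping reads, the step is not given in the sources used here.

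Library sizes were scaled with TMM factors of edgeR 4.0.16 (R 4.3.3). Ratios carry Clopper-Pearson 95% intervals (scipy 1.17.1), which cover counting error only and take each counted read as independent. PCR copies, or both ends of a fragment if counted apart, are not independent molecules and would make the intervals too narrow. With 1 library per group there was no test. A call needs a ratio of at least 2 or at most 0.5 and an interval excluding 1. The steps were tested on simulated data with independent counts, as the intervals assume. That test checks the code and says nothing of variation between cultures. Members and gene lists were chosen with earlier results of these data known. The text names all members, other fucosyltransferases, GDP-fucose genes, genes within 100 kb of FUT1 or 50 kb of the FUT3 cluster, the 5 kept genes of like depth nearest FUT1 in ratio, and up to 2 genes per direction of each other list by interval bound. MGAT1, ABO, B3GALT4, B3GALT5, PIWIL4, SMIM11, TMEFF1, NOTCH3, LFNG, MFNG, RFNG, NOTCH4, MMRN2 and GBGT1 were named after their values were seen. Symbols matched RefSeq (GRCh38.p14) for 8 members and through a synonym for 2, FUT10 and FUT11. Gene structure came from GENCODE release 29. Promoter sequences are those of RefSeq, GRCh38.p14.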

Additional observations from a re-analysis of the deposited data

How the results depend on the processing

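The log2 ratios of the 9 members with a ratio kept their direction under median-of-ratios, upper quartile and library-total scaling and on log2(FPKM + 1) and log2(FPKM + 0.1). For FUT1 these last 2 gave -0.32 and -1.69, since a pseudocount shrinks low levels. The single member at least 2-fold lower, FUT1, was lost when the filter asked for 5 CPM in at least 1 library or for 1 CPM as the mean of both (0 members lower in each), and 7 members were then kept. Over all genes, the numbers at least 2-fold lower and higher were 319 and 377 with no filter, 11 and 7 at 5 CPM, 38 and 36 with the mean filter, and 855 and 741 when a log2 ratio of 0.32 sufficed. The median of the kept members was 0.08 without FUT1, a setting added after the data were seen. With GENCODE exon lengths, also added then, FUT8, POFUT2 and FUT11 took places 3, 4 and 5 in the control library, and the shares of summed FPKM in shControl and shPPIL1 were 27.3% and 31.3% for FUT1 and FUT2, 2.31% and 2.29% for FUT3, FUT4 and FUT6, 4.03% and 3.53% for FUT8, 5.35% and 5.9% for FUT10 and FUT11, and 61% and 57% for POFUT1 and POFUT2. No paired analysis was possible because each group holds 1 library. Depth limits FUT1, FUT3 and FUT6 most.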

Other observations

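Several genes of the fucosylation lists fell below the filter of 1 CPM and are given as values alone. LFNG, a fringe enzyme that extends O-fucose on Notch, stood at 18 reads in shControl and 4 in shPPIL1 (ratio 0.218, 0.0537 to 0.663). The other fringe genes had more reads, were kept and had intervals including 1. These were MFNG with 110 and 94 reads (0.840, 0.631 to 1.12) and RFNG with 526 and 513 (0.958, 0.847 to 1.08). NOTCH4 had 8 and 15 reads (1.84, 0.733 to 5.02), and MMRN2, an EMI-domain protein, had 4 and 12 (2.95, 0.893 to 12.5). GBGT1, the Forssman glycolipid synthase, had 6 and 2 reads (0.328, 0.0323 to 1.83).

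Next to FUT6 on chromosome 19, NRTN, the growth factor neurturin, stood at 4 reads in shControl and 24 in shPPIL1 (ratio 5.895, 2.025 to 23.4). NTN5, on the far side of FUT2 from FUT1, had 0 and 12 reads, at least 3.93-fold higher when the control library is set to the floor of 3 reads. Both genes were under 1 CPM in both libraries. Around the FUT3, FUT5 and FUT6 cluster, NDUFA11, a subunit of respiratory complex I, had 2843 and 3332 reads (1.15, 1.095 to 1.21), while RANBP3 had 2283 and 2197 (0.9455, 0.891 to 1.003). The other neighbours had intervals including 1: PRR22 with 74 reads in each library, DUS3L with 772 and 825, VMAC with 100 and 96, and CAPS with 36 and 54.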
